A study of Mus musculus with 16 samples.

Results

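Imprinted genes of the mouse were followed across RNA of cells labelled as juxtaglomerular (JG) cells, the cells that make renin in the kidney. They are H19, Igf2, Igf2r, Meg3, Rian, Mirg, Dlk1, Peg3, Grb10 and Plagl1, and they were taken by gene symbol as 10 of the 46078 genes counted. The set was chosen by a measured value, the high ratio of Ago2-bound to polyA RNA of H19 in control cells, so that this ratio in control libraries is described below and not tested, and H19 is given without a test wherever control libraries enter a comparison. By their labels the cells are cultured JG cells that carry YFP driven by the renin promoter, and they received either a microRNA precursor of non-mammalian origin (control) or miR-106b. All libraries belong to a time of 48 h after transfection. PolyA RNA was taken with oligo(dT) from 4 control cultures (polyA control) and 4 miR-106b cultures (polyA miR-106b) lysed directly in Trizol. RNA bound to Ago2, the protein that carries miRNAs in the RNA-induced silencing complex (RISC), was precipitated with an antibody from 4 other control cultures (Ago2-IP control) and 4 other miR-106b cultures (Ago2-IP miR-106b) that had been trypsinized first. The kind of RNA and the way of harvest therefore cannot be told apart.

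The depth ran from 2579086 to 9459585 counts on genes per library. It was 5692958 to 9459585 in polyA control and 2815272 to 4554848 in polyA miR-106b. In Ago2-IP libraries it was 3501909 to 4616424 (control) and 2579086 to 3450269 (miR-106b). Every polyA control library was thus deeper than any library of the other groups, and the part of this in the comparisons was not tested. Levels are given as CPM, counts scaled to the same total in each library, with the SD over the 4 libraries of a group. Ren1, which encodes renin, had 0 counts in all 16 libraries, which allows up to 3 counts in each. The defining transcript of the labelled cell type was thus not detected, the identity of the source cells is in doubt, and they are called JG cells after their label only. Of 15 listed genes of JG and mural cells, Ren1 alone was at 0 in all libraries. The summed level of the 15 was 1636 to 1761 CPM in polyA control and 1473 to 2009 CPM in polyA miR-106b. In Ago2-IP libraries it was 1274 to 1327 CPM (control) and 1228 to 1320 CPM (miR-106b). Cardiac muscle genes were abundant. The summed level of 25 of them, such as Myh6 and Tnnt2, ran from 21746 to 30965 CPM in polyA control, from 42392 to 73511 CPM in polyA miR-106b, and in Ago2-IP libraries from 98373 to 104998 CPM (control) and from 95611 to 105061 CPM (miR-106b). None of the 25 was at 0 in every library of a group. In polyA RNA 23 of the 24 cardiac genes tested, 14 of 15 genes of endothelium and blood, and 10 of 10 fibroblast genes were higher with miR-106b, as were 19% of all genes tested. These transcripts moved with several of the imprinted genes, and their part in the results was not tested. In bulk RNA, fewer cells of a type and less RNA per cell cannot be told apart.

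An imprinted gene is transcribed mainly from a single parental allele, which is set by methylation of a control region in the germ line. H19, a noncoding RNA of the maternal allele, and Igf2, a growth factor of the paternal allele, are neighbours that share a control region and enhancers. Igf2r encodes the receptor that takes IGF2 to the lysosome. Meg3, Rian and Mirg are maternal noncoding RNAs of the Dlk1-Dio3 domain and host clusters of miRNAs and small nucleolar RNAs, while Dlk1 is the paternal protein-coding gene of that domain. Peg3 and Plagl1 encode zinc finger proteins made from the paternal allele, and Grb10 encodes an adaptor that dampens signalling of the insulin and IGF receptors. Many of these genes are active in fetal tissue and are turned down after birth. The counts analysed here do not separate the alleles.

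Of the 10 genes 5 hold miRNA genes on their own strand, 21 miRNA genes with 39 mature miRNAs in the RefSeq table of GRCm38.p6. Mirg holds 14 of the miRNA genes, Rian 3, Meg3 2, and H19 and Igf2 1 each. These libraries were not made from small RNA, and the genes of these miRNAs received 7 counts in all 16 libraries together, 4 on Mir341 and 3 on Mir1188, both in Rian. Where a miRNA gene lies in an exon of its host, reads of the 2 cannot be told apart. The seed, bases 2 to 8, is in capitals below for miR-106b-5p, for miRNAs of H19, Igf2 and Meg3, and for the only 2 of the 39 that share a seed with each other, both from Mirg.
miR-106b-5p: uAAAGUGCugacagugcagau
miR-675-5p of H19: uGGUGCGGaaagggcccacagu
miR-675-3p of H19: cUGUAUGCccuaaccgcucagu
miR-483-5p of Igf2: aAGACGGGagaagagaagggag
miR-483-3p of Igf2: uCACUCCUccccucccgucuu
miR-770-5p of Meg3: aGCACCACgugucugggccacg
miR-453 of Mirg: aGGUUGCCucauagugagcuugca
miR-496a-5p of Mirg: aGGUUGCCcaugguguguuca
0 of the 39 carries the seed of miR-106b-5p, AAAGUGC.

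The letters that pair with this seed are GCACTTT (positions 2 to 8) and CACTTTA (positions 2 to 7 followed by an A). They were searched on the transcribed strand in the longest 3′UTR of the 6 protein-coding genes and in the longest transcript of the 4 noncoding ones, as annotated by GENCODE M21. Meg3 alone held any match. Its transcript has 14548 bases, and the median of the 710 noncoding genes compared is 2256. Its matches, shown in capitals with their surroundings on the plus strand of GRCm38, were the following.
chr12:109545769-109545775: ttctaccaGCACTTTctttggcc
chr12:109567409-109567415: ggcacatgGCACTTTgcaaaccc
chr12:109569074-109569080: ggtttacaCACTTTActgttgtc
Among genes tested, GCACTTT was present in 14.8% of 13180 longest 3′UTRs and in 13.5% of 710 noncoding transcripts, and CACTTTA in 10.1% and 11.1%. For H19, Igf2, Igf2r, Rian, Mirg, Dlk1, Peg3, Grb10 and Plagl1 these letters were not in the window searched.

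To ask what miR-106b did to these genes' messages, polyA RNA of miR-106b and control cells was compared with edgeR's quasi-likelihood test over all 14897 genes with enough counts. The control libraries that led to H19 enter this comparison, so H19 is described and left out of the counts. Igf2, Igf2r, Meg3 and Rian were higher with miR-106b and Peg3 was lower, 5 of the 8 other genes with enough counts, while Mirg, Grb10 and Plagl1 did not pass and Dlk1 had too few counts. This stood against 40.5% of all genes with an adjusted p under 0.05, 19% higher and 21.5% lower. Of these calls 47.0% were higher, but the balance turned in fits without 1 polyA control library, to 60.0% of 4562 calls without replicate 1, 60.3% of 4123 without replicate 2 and 60.2% of 4284 without replicate 3. It was 52.1% without replicate 1 of polyA miR-106b, 54.5% both with DESeq2's size factors and with its Wald test, 61.4% with all 16 libraries in 1 fit and 50.8% when low counts were not filtered. Libraries of the 2 groups did not overlap for 4 of the 8 upward and 1 downward, as for 16.5% and 22.0% of all genes (38.5% in either direction). The median log2 fold change of the 8 was 0.65, beside -0.05 for all genes tested. All 8 passed without replicate 1 of polyA miR-106b, a fit in which 6704 of the 14897 genes passed, beside 6034 in the main fit. That library had the lowest cardiac level of its group (42392 CPM), and the part of this was not tested. Scaling by library size alone or by DESeq2's size factors turned the direction of none of the 5.

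**Figure D1:**
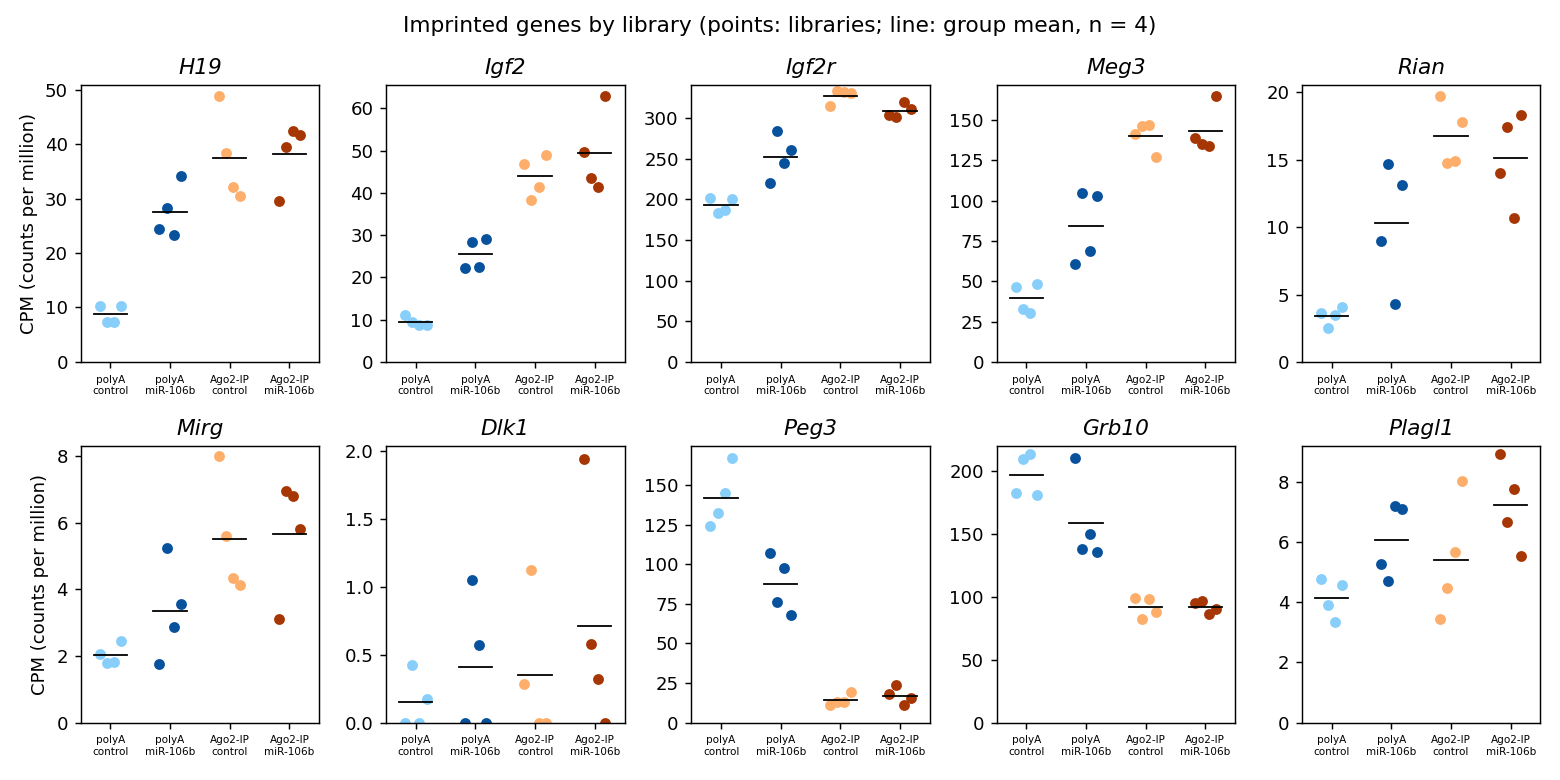
Level of each of the 10 genes in CPM (linear axis from 0) in the 16 libraries, by group. Points are libraries and the line is the group mean of 4. H19, Igf2, Igf2r, Meg3 and Rian in polyA control lie below every polyA miR-106b library, Peg3 lies above, and in the Ago2-IP groups the points overlap for all 10 genes.

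H19 (ENSMUSG00000000031) is a noncoding RNA with 3 exon blocks on the minus strand of chromosome 7 of GRCm38, from 142575529 to 142578143. Its level was 10.3, 7.40, 7.27 and 10.2 CPM in the polyA control libraries and 24.4, 28.3, 23.3 and 34.1 CPM in the polyA miR-106b libraries. The lowest miR-106b library was thus above the highest control library. The fitted log2 change was 1.68 (SE 0.192), given without a test because low polyA control values favoured the choice of H19, from a mean of 8.79 ± 1.68 to 27.5 ± 4.90 CPM (SD, n = 4), and 143 of the 14897 genes had a larger rise. In Ago2-IP RNA the H19 level was 48.8, 38.3, 32.2 and 30.5 CPM in control and 29.5, 39.4, 42.4 and 41.6 CPM in miR-106b libraries. These groups overlapped over most of their range, with a fitted log2 change of 0.05 (SE 0.130), also not tested.

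Igf2 (ENSMUSG00000048583), the growth factor gene beside H19, lies on the minus strand of chromosome 7 from 142650766 to 142666816. Its polyA level was 11.1, 9.51, 8.64 and 8.61 CPM in control and 22.2, 28.3, 22.4 and 29.1 CPM with miR-106b, again without overlap. By edgeR's test it had a log2 rise of 1.45 (SE 0.169, adjusted p = 0.000682). Its Ago2-IP level was 46.8, 38.3, 41.4 and 49.0 CPM in control and 49.6, 43.5, 41.4 and 62.8 CPM with miR-106b, a log2 change of 0.17 (SE 0.112, adjusted p = 0.909). Igf2 shares 3596 exonic bases with Gm49394, a gene model on the same strand that was not among the genes counted, so reads of the 2 models cannot be told apart.

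H19 was also set against Igf2 within libraries. For 100 counts on Igf2 there were 93.3 ± 17.8 counts on H19 in polyA control and 108 ± 7.46 in polyA miR-106b libraries (SD, n = 4). In Ago2-IP libraries the ratio was 86.1 ± 19.6 (control) and 79.6 ± 20.2 (miR-106b). The polyA and Ago2-IP libraries of miR-106b cells did not enter the control ratio that led to H19. Compared in the counts on H19 for 100 on Igf2, they gave an exact two-sided permutation p = 0.0571. With 4 libraries a group the smallest p this test can give is 0.0286. Such tests were made 10 times, on 4 ratios of 2 genes, and adjusted over the 10 (Benjamini-Hochberg) the smallest value was 0.190. The smallest p before adjustment, 0.0286 in the same exact test, was that of Igf2r against Grb10 in miR-106b cells. For 100 counts on Grb10 there were 167 ± 45.2 on Igf2r in polyA and 336 ± 26.0 in Ago2-IP libraries (SD, n = 4). Single libraries held between 59.4 and 118 counts on H19 for 100 on Igf2. Since the exons of H19 span 2460 bases and those of Igf2 5723, H19 had the higher level per length.

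Igf2r (ENSMUSG00000023830), with 49 exon blocks on the minus strand of chromosome 17 from 12682406 to 12769664, was the most abundant of the genes in Ago2-IP RNA. Its polyA level was 202, 183, 187 and 200 CPM in control and 220, 284, 245 and 261 CPM with miR-106b. The groups did not overlap, but the log2 rise was small, 0.41 (SE 0.112, adjusted p = 0.0105). Ago2-IP levels were 314, 333, 332 and 330 CPM in control and 304, 301, 320 and 311 CPM with miR-106b, a log2 change of -0.08 (SE 0.0461, adjusted p = 0.899). The antisense RNA Airn, which silences Igf2r on the paternal allele, overlaps Igf2r but shares 0 exonic bases with it. In polyA RNA Airn had 8.50 ± 2.10 CPM without and 10.6 ± 3.40 CPM after miR-106b (SD, n = 4, log2 fold change 0.33, adjusted p = 0.345 in edgeR's test), and since the libraries kept no strand, intronic reads there cannot be assigned to a strand.

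The Dlk1-Dio3 domain lies on the plus strand of chromosome 12. Meg3 (ENSMUSG00000021268, 109541001 to 109571726), a noncoding RNA known as a growth suppressor, had 46.3, 32.7, 30.3 and 48.1 CPM in polyA control and 61.0, 105, 68.9 and 103 CPM with miR-106b. It had a log2 rise of 1.13 (SE 0.212, adjusted p = 0.00145), and the groups did not overlap although the miR-106b libraries spread from 61.0 to 105 CPM. In Ago2-IP RNA Meg3 had 141, 146, 147 and 127 CPM in control and 139, 135, 134 and 165 CPM in miR-106b libraries (log2 fold change 0.04, SE 0.0647, adjusted p = 0.966). Meg3 shares 1228 exonic bases with Gm26906 on the opposite strand, and since the libraries kept no strand, reads of the 2 genes cannot be told apart there.

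Rian (ENSMUSG00000097451, 109603940 to 109661716), the host of a small nucleolar RNA cluster, had 3.65, 2.54, 3.49 and 4.04 CPM in polyA control and 9.00, 14.7, 4.31 and 13.1 CPM with miR-106b. Replicate 3 of the miR-106b group, at 15 counts, stayed just above the controls, and the log2 rise of the group was 1.63 (SE 0.345, adjusted p = 0.00275). Its Ago2-IP level was 19.7, 14.8, 14.9 and 17.8 CPM in control and 14.0, 17.4, 10.7 and 18.3 CPM with miR-106b, which overlapped (log2 fold change -0.14, SE 0.176, adjusted p = 0.954).

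Mirg (ENSMUSG00000097391, 109729764 to 109749460), which hosts the miRNA cluster downstream of Rian, had 1.80 to 2.46 CPM in polyA control and 1.76 to 5.25 CPM with miR-106b. Its log2 fold change of 0.74 had an SE of 0.362 and did not pass (adjusted p = 0.122 in edgeR's test), with 8 to 20 counts per polyA library. Dlk1 (ENSMUSG00000040856, 109452823 to 109463336), which encodes a ligand-like inhibitor of Notch signalling, had 5 counts over the polyA control and 6 over the polyA miR-106b libraries, and 5 and 8 over those of Ago2-IP RNA. At this depth no difference in Dlk1 was detectable. Per 100 counts of Meg3 there were 8.88 ± 1.77 counts of Rian in polyA control and 11.9 ± 3.88 in polyA miR-106b (exact permutation p = 0.229), and 5.27 ± 0.654 against 3.87 ± 0.925 counts of Mirg (exact permutation p = 0.0571, SD, n = 4). Neither ratio passed 0.05 between transfections.

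Peg3 (ENSMUSG00000002265), a zinc finger gene on the minus strand of chromosome 7 from 6703892 to 6730421, moved the other way. It had 124, 132, 145 and 167 CPM in polyA control and 107, 76.1, 97.9 and 68.2 CPM with miR-106b. Every miR-106b library was below every control library, and the log2 fold change was -0.67 (SE 0.145, adjusted p = 0.00302). Peg3 was scarce in Ago2-IP RNA, with 11.4, 12.8, 13 and 19.5 CPM in control and 17.8, 23.8, 11.0 and 15.4 CPM with miR-106b (log2 fold change 0.25, SE 0.200, adjusted p = 0.923).

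Grb10 (ENSMUSG00000020176), on the minus strand of chromosome 11 from 11930508 to 12038683, had 183, 210, 214 and 181 CPM in polyA control and 211, 138, 150 and 136 CPM with miR-106b. Replicate 1 of miR-106b lay among the controls and the other 3 below them. Its log2 fold change was -0.29 (SE 0.145, adjusted p = 0.132), and -0.38 without that replicate (adjusted p = 0.00715 in edgeR's test). Plagl1 (ENSMUSG00000019817), a zinc finger transcription factor gene on the plus strand of chromosome 10 from 13060504 to 13131694, had 3.33 to 4.76 CPM in polyA control and 4.72 to 7.18 CPM with miR-106b. Its groups overlapped by a narrow margin, with a log2 change of 0.56 (SE 0.243, adjusted p = 0.0829), or 0.70 without the same replicate (adjusted p = 0.0413). Mirg likewise reached 1.06 (adjusted p = 0.0212) without it. Over all fits without 1 library the log2 fold change ran from -0.38 to -0.16 for Grb10, from 0.47 to 0.72 for Plagl1 and from 0.40 to 1.06 for Mirg.

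Set against each other per kilobase of exon, Grb10 (21.7 ± 1.92 CPM per kb, SD, n = 4) and Igf2r (20.7 ± 1.01) had the highest levels in polyA control and overlapped. Peg3 followed at 10.7 ± 1.41, H19 at 3.57 ± 0.684, Meg3 at 2.18 ± 0.507 and Igf2 at 1.65 ± 0.205 CPM per kb, the last pair overlapping. Plagl1 (0.530 ± 0.0832), Mirg (0.279 ± 0.0422), Rian (0.188 ± 0.0350) and Dlk1 (0.0264 ± 0.0354) were at the low end. In Ago2-IP control the order was Igf2r at 35.2 ± 0.945, H19 at 15.2 ± 3.37, Grb10 at 10.1 ± 0.893, Meg3 at 7.75 ± 0.499 and Igf2 at 7.66 ± 0.858 CPM per kb. Meg3 and Igf2 overlapped there, and so did Peg3 (1.06 ± 0.271), Rian (0.921 ± 0.131), Mirg (0.755 ± 0.244) and Plagl1 (0.690 ± 0.252). H19 thus stood below Grb10 and Peg3 in polyA control and above both in Ago2-IP control. This restates the control ratio that led to the choice of H19, so nothing is read from it.

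The same comparison in Ago2-IP RNA asked whether miR-106b changed what was bound to Ago2. With edgeR's test 0 of 14897 genes had an adjusted p under 0.05, and 827 (5.55%) had an unadjusted p under 0.05, which none of the 8 genes counted did, H19 left aside. DESeq2 called 2 genes and edgeR's likelihood ratio test 4, none of them among the 8. None of the 8 had groups without overlap, as 3.24% of all genes had. Log2 fold changes of the 8 lay between -0.14 (Rian) and 0.38 (Plagl1, SE 0.288, adjusted p = 0.918). For H19, Meg3, Mirg and Grb10 the sign turned in some of the fits without 1 library.

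The ratio of Ago2-IP to polyA RNA states how far a transcript was richer in the precipitate than in the messages. In control cells, which led to the choice of H19, the log2 ratio was 2.39 for H19, 2.50 for Igf2, 2.60 for Rian, 2.13 for Meg3, 1.71 for Mirg, 1.05 for Igf2r and 0.70 for Plagl1. Those of Grb10 (-0.81) and Peg3 (-3.00) lay below 0. The H19 ratio was exceeded by 415 genes, 2.79% of those tested, and Igf2 and Rian were above H19. H19 left aside, 5 of the other 8 genes had every Ago2-IP control library above every polyA control library and 2 below. Among all genes 70.5% had such groups, 26.1% with the Ago2-IP libraries higher and 44.5% with them lower. The median of these 8 was 1.38 and that of all genes -0.06, or -0.35 for all genes where libraries were scaled by their size alone.

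In miR-106b cells, whose libraries did not enter the control ratio that led to H19, the ratio was tested. Igf2 (log2 ratio 1.11, SE 0.172, adjusted p = 0.000281), Meg3 (0.91, SE 0.175, adjusted p = 0.00115), H19 (0.63, SE 0.173, adjusted p = 0.00928) and Igf2r (0.44, SE 0.118, adjusted p = 0.00829) were richer in Ago2-IP RNA, and Peg3 (-2.21, SE 0.203, adjusted p = 5.6e-06) and Grb10 (-0.63, SE 0.144, adjusted p = 0.00283) were poorer. That made 6 of 9 genes, 4 richer and 2 poorer, against 38.5% of all genes, 18.6% richer and 19.8% poorer. Of the calls over all genes 48.5% were higher in Ago2-IP RNA, and 34.0% with scaling by library size alone, which moved the median of all genes from -0.04 to -0.19. H19 is the only one of the 6 whose groups overlapped, since replicate 4 of polyA miR-106b (34.1 CPM) lay above replicate 1 of Ago2-IP miR-106b (29.5 CPM). Groups without overlap numbered 3 upward and 2 downward among the 9, and made up 13.9% and 25.7% of all genes (39.5% in either direction). The log2 ratios of Mirg (0.93, adjusted p = 0.0681), Rian (0.70, adjusted p = 0.0924) and Plagl1 (0.40, adjusted p = 0.261) did not pass.

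**Figure D2:**
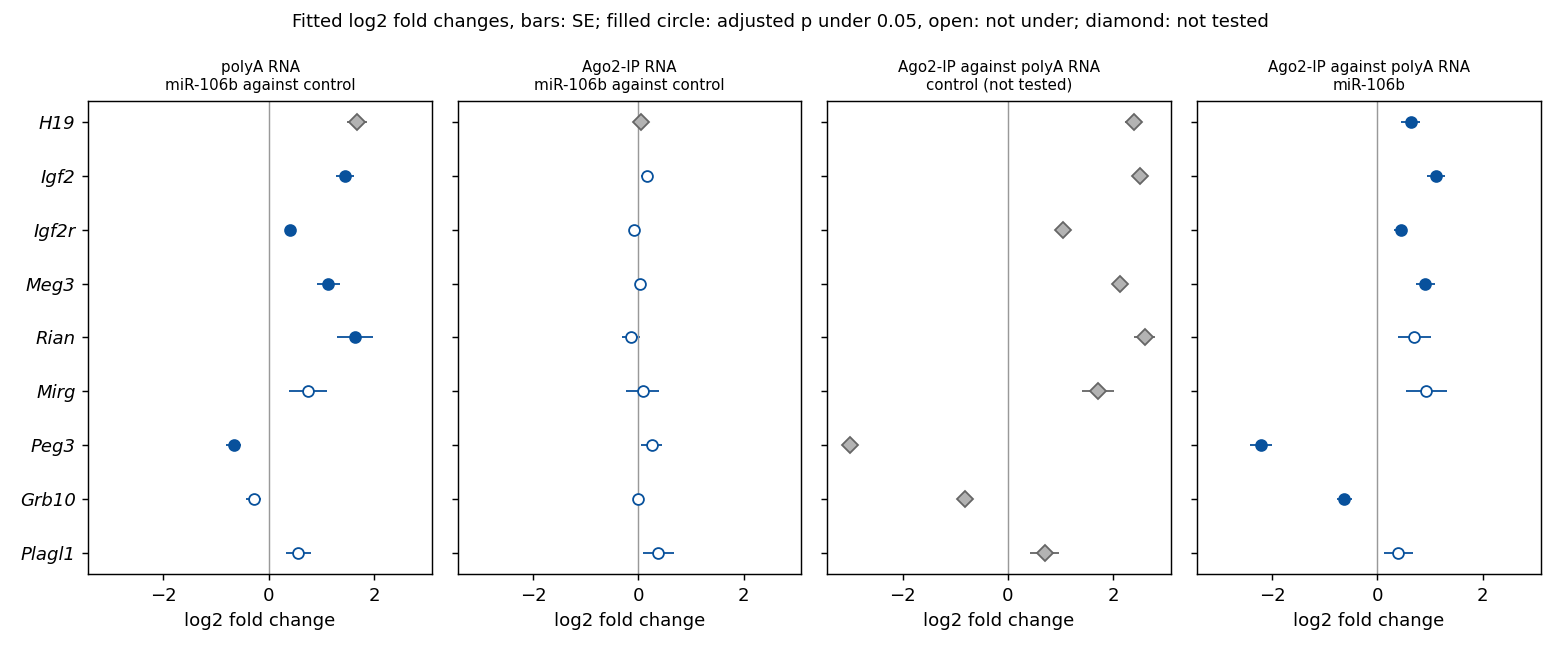
Fitted log2 fold changes (horizontal axis) of the 9 genes tested, in 4 panels, with bars of 1 SE. Filled circles passed edgeR's quasi-likelihood test at an adjusted p under 0.05, open circles did not, and grey diamonds were not tested. Peg3 and Grb10 lie below 0 in both panels of Ago2-IP against polyA RNA, where the other 7 lie above 0, and every gene lies between -0.14 and 0.38 in Ago2-IP RNA.

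The change of this ratio with miR-106b was tested as an interaction over all 16 libraries. It fell by 1.42 for Igf2 (SE 0.217, adjusted p = 3.9e-05), by 0.64 for Igf2r (SE 0.124, adjusted p = 0.000402), by 1.24 for Meg3 (SE 0.250, adjusted p = 0.00109) and by 1.92 for Rian (SE 0.388, adjusted p = 0.000653), all on the log2 scale. The ratio of H19 changed by -1.78 (SE 0.253), given without a test because its control ratio was the reason for the choice. Peg3 rose by 0.78 (SE 0.274, adjusted p = 0.0402), which was over 0.05 in 9 of the 16 fits without 1 library and reached 0.135 without replicate 2 of Ago2-IP miR-106b. Mirg (-0.80, adjusted p = 0.231), Plagl1 (-0.32, adjusted p = 0.571) and Grb10 (0.14, adjusted p = 0.572) did not pass. These are 5 of 8 genes tested, 4 lower and 1 higher, where 27.3% of all genes passed, 19.7% lower and 7.62% higher. Of those calls 27.9% were higher (46.3% with scaling by library size alone, where the median of all genes was 0.10 and not -0.07). The Ago2-IP levels of the 8 genes had not passed a test between transfections, and the polyA levels of Igf2, Igf2r, Meg3 and Rian had risen and that of Peg3 had fallen.

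**Figure D3:**
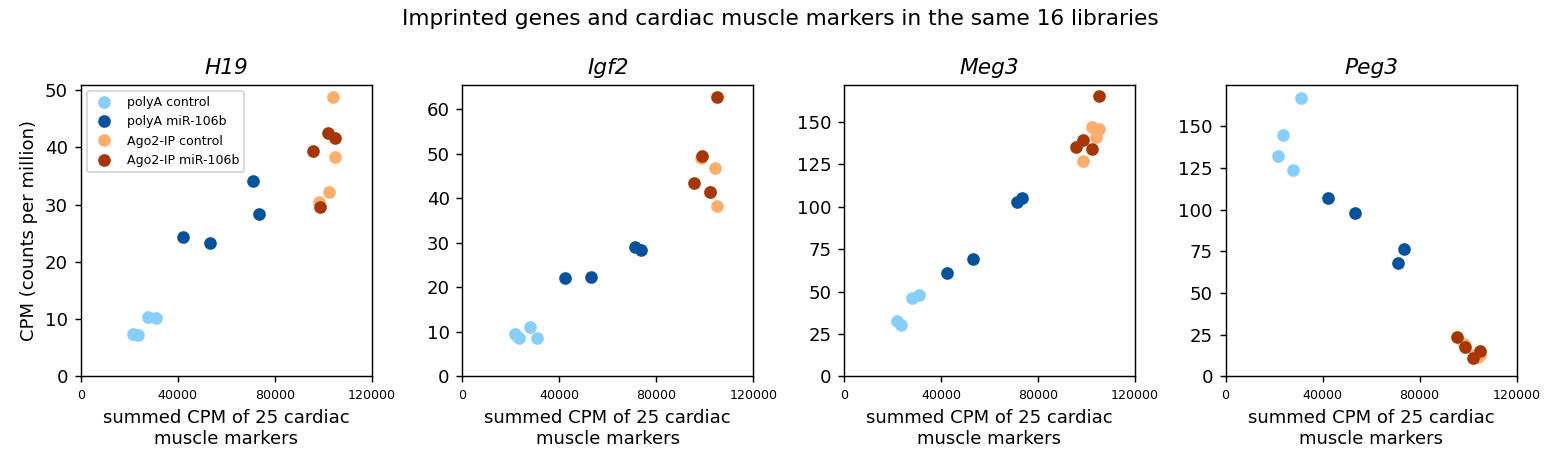
Level of H19, Igf2, Meg3 and Peg3 in CPM (vertical axis, from 0) against the summed CPM of the 25 cardiac muscle markers in the same library (horizontal axis, from 0), 16 libraries in 4 colours by group. H19, Igf2 and Meg3 are low where the cardiac sum is low (from 21746 CPM) and high where it is high (to 105061 CPM), and Peg3 runs the other way.

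Beside these changes stand the cardiac transcripts, whose median log2 fold change in polyA RNA was 1.23, with 0 of 24 past the test in Ago2-IP RNA and a median of 2.27 for the ratio in control cells. After values had been seen, each gene was also set against the summed cardiac markers of its own library. Meg3 had 12.9 to 16.6 CPM for 10000 CPM of cardiac markers in polyA control, 13 to 14.5 in polyA miR-106b, and in Ago2-IP RNA 12.9 to 14.4 (control) and 13.1 to 15.8 (miR-106b), 4 ranges that overlap. On the same scale Igf2 had 2.78 to 4.38 in polyA control and 3.86 to 5.23 in polyA miR-106b, and Rian 1.17 to 1.48 and 0.809 to 2.12, both overlapping. H19 had 3.10 to 3.70 in polyA control and 3.86 to 5.75 in polyA miR-106b libraries, which did not overlap. This was so for 0.121% of all genes in that direction, and nothing is read from it since the H19 values of control libraries led to its choice. In the Ago2-IP libraries H19 ranged from 3.10 to 4.69 in control and from 2.98 to 4.15 with miR-106b. On this scale Igf2r, Mirg, Peg3, Grb10 and Plagl1 had every polyA miR-106b library below every polyA control library, as 65.4% of all genes did. The cardiac sum itself was higher in every polyA miR-106b library, which lowers any gene on this scale, so nothing is read from these 5. The same holds for the overlap of Meg3, Igf2 and Rian, shared by all genes outside the 65.4% and the 0.121%.

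Across the 16 libraries, log2 CPM of H19 correlated with that of Igf2 at r = 0.96, Meg3 at 0.96, Igf2r at 0.94, Rian at 0.94, Mirg at 0.88 and Plagl1 at 0.65. The correlation was -0.80 with Grb10 and -0.83 with Peg3. The libraries fall into the 4 groups, so these values describe mainly the group means, and the points share libraries and their depth. Of 10946 genes compared, Mccc2 (r = 0.99), Pex19 (0.99), Prelp (0.98), Txnip (0.98) and Smpd1 (0.98) were most like H19. Igf2, its neighbour, was at rank 698 in this order and Meg3 at rank 495. Txnip, which encodes a thioredoxin-binding protein, went from 104 to 186 CPM in polyA RNA and stood at 224 and 226 CPM in Ago2-IP RNA (means of control and miR-106b).

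Other imprinted genes, a list of 58 of which 42 were tested, gave 16 past the test in polyA RNA, 11 higher and 5 lower, with a median log2 fold change of 0.22. As a share this was close to the 40.5% of all genes. Dcn, a proteoglycan gene of connective tissue, had a log2 rise of 1.24 (SE 0.190, adjusted p = 0.000682), and Kcnq1, a potassium channel gene of the heart among other tissues, one of 1.22 (SE 0.202, adjusted p = 0.000796). Cdkn1c, an inhibitor of cyclin-dependent kinases from the domain next to Igf2, rose by 1.09 (SE 0.293, adjusted p = 0.0101) from 7.89 ± 1.88 to 16.6 ± 6.91 CPM (SD, n = 4), and Peg13 by 0.94 (SE 0.178, adjusted p = 0.00146). Among those that fell, Gatm, an enzyme gene of creatine synthesis, changed by -1.27 (adjusted p = 0.000685), the retrotransposon-derived Peg10 by -1.05 (adjusted p = 0.00312), Sfmbt2 by -0.92 (adjusted p = 0.00907) and Inpp5f by -0.58 (adjusted p = 0.0112). In Ago2-IP RNA 0 of the 42 passed and 1 had an unadjusted p under 0.05 (5.55% of all genes).

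In miR-106b cells 18 of these 42 genes differed between Ago2-IP and polyA RNA, 12 richer and 6 poorer in Ago2-IP RNA, a share near the 38.5% of all genes. Slc22a3, which lies near Igf2r, had a log2 ratio of 1.63 (SE 0.301, adjusted p = 0.000815), and Mest 1.06 (SE 0.264, adjusted p = 0.00535). Zrsr1 (1.02, adjusted p = 0.0157), whose groups overlapped, and Slc38a4 (1.02, adjusted p = 0.0231) followed. Peg10 was poorer by far, at -3.83 (SE 0.321, adjusted p = 3.7e-05), from 140 CPM in polyA to 8.80 CPM in Ago2-IP RNA, and Sgce, its neighbour, at -1.76 (SE 0.234, adjusted p = 8.4e-05). H13 (-0.88, adjusted p = 0.000170) and Inpp5f (-1.15, adjusted p = 0.00347) were poorer as well. The ratio changed with miR-106b for 14 of the 42, 13 down and 1 up, where 27.3% of all genes passed. Cdkn1c (-1.49, adjusted p = 0.00114), Kcnq1 (-1.43, adjusted p = 4.0e-05), Dcn (-1.41, adjusted p = 5.6e-05) and Peg13 (-1.17, adjusted p = 0.000100) fell and Gatm rose (1.25, adjusted p = 0.00583).

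The IGF axis, 30 genes of ligands, receptors, binding proteins signalling partners and RNA-binding partners of Igf2, had 26 tested. Igf2, Igf2r and Grb10 are not among the 30. In polyA RNA 16 of them passed, 12 higher and 4 lower, beside 40.5% of all genes. Of 7 genes of the binding proteins that hold IGFs outside the cell 4 rose, Igfbp5 by 1.26 (SE 0.176, adjusted p = 0.000682), Igfbp6 by 1.20 (SE 0.196, adjusted p = 0.000767), Igfbp4 by 1.14 (SE 0.179, adjusted p = 0.000682) and Igfbp3 by 1.05 (SE 0.202, adjusted p = 0.00162). Igfbp7, the most abundant of them at 516 and 523 CPM, did not pass (log2 0.05, adjusted p = 0.765), nor did Igfbp2 (1.02, adjusted p = 0.222), and Igfbp1 had 0 counts. Among the genes that fell were Igf2bp1 (-1.10, adjusted p = 0.00227) and Igf2bp2 (-0.66, adjusted p = 0.00290), whose products bind Igf2 mRNA, Pappa (-0.93, adjusted p = 0.00804), a protease of IGF binding proteins, and the receptor gene Igf1r (-0.58, adjusted p = 0.0152). Igf2bp1 went from a mean of 62.4 to 28.5 CPM in polyA RNA, against 1.49 and 3.75 CPM in Ago2-IP RNA.

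For the ratio in miR-106b cells 16 of the 26 IGF axis genes passed, 8 in each direction, beside 38.5% of all genes. Igfbp6 (0.91, adjusted p = 0.000795), Igfbp5 (0.82, adjusted p = 0.000731), Igfbp4 (0.79, adjusted p = 0.00125) and Igfbp3 (0.78, adjusted p = 0.00227) were richer in Ago2-IP RNA, on the log2 scale. Igfbp2 (-4.09, SE 1.03, adjusted p = 0.0221), Igf2bp1 (-2.77, SE 0.478, adjusted p = 0.00162), Igf2bp2 (-2.02, SE 0.191, adjusted p = 5.6e-06) and Igf1 (-1.97, SE 0.627, adjusted p = 0.0482) were poorer. For the change of the ratio 14 of the 26 passed, 13 of them lower, beside 27.3% of all genes. Igfbp3 (-1.49, adjusted p = 0.000101), Igfbp5 (-1.47, adjusted p = 2.0e-05), Igfbp4 (-1.42, adjusted p = 2.3e-05) and Igfals (-1.38, adjusted p = 0.0222) fell, and Igf2bp2 rose (0.78, adjusted p = 0.0104). In Ago2-IP RNA 0 of the 26 passed and 3 had an unadjusted p under 0.05, as 5.55% of all genes had.

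**Figure D4:**
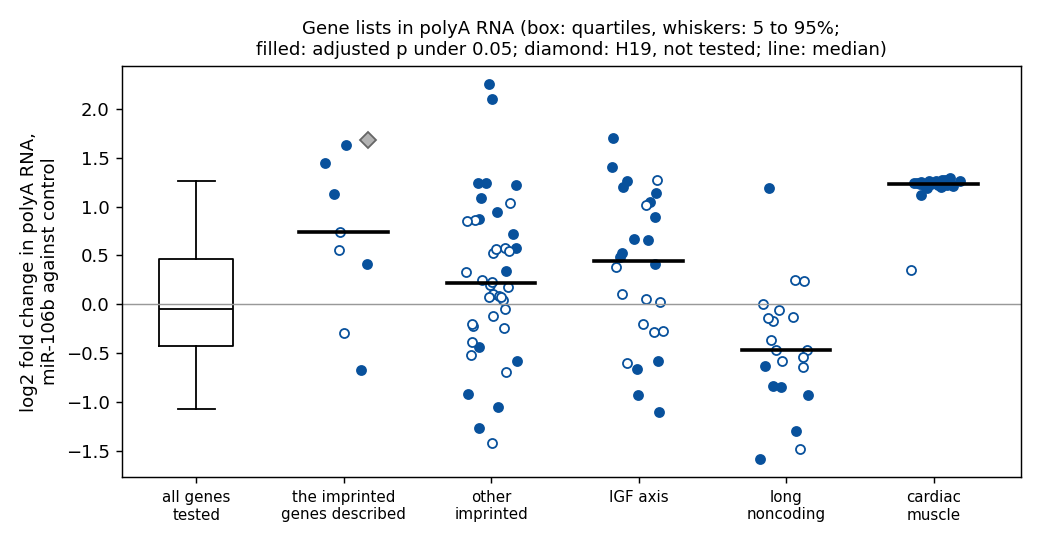
Log2 fold change in polyA RNA, miR-106b against control (vertical axis), for all genes tested (box of quartiles, whiskers from 5 to 95%) and for genes of 5 lists, filled where the adjusted p is under 0.05 and with H19, not tested, as a diamond. The medians (lines) are 0.74 for the imprinted genes described (0.65 without H19), 0.22 for other imprinted genes, 0.45 for the IGF axis, -0.47 for long noncoding RNAs and 1.23 for cardiac muscle genes, beside -0.05 for all genes.

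Other long noncoding RNAs were compared because H19, Meg3, Rian and Mirg are noncoding. The list holds 1 RNA of an imprinted locus, Snhg14, which is made from the paternal allele beside Snrpn and Ube3a. Of 35 listed, 21 were tested, and in polyA RNA 1 rose and 6 fell (40.5% of all genes passed), with a median log2 fold change of -0.47, or -0.51 without Snhg14. Snhg4 (-1.58, adjusted p = 0.00167), Snhg17 (-1.30, adjusted p = 0.0104) and Snhg20 (-0.85, adjusted p = 0.00293), hosts of small nucleolar RNAs, and Dnm3os (-0.93, adjusted p = 0.00412), a miRNA host, fell. In control cells the median log2 ratio of the 21 was -1.23 (-1.39 without Snhg14), beside -0.06 for all genes, and 13 of the 21 had every Ago2-IP control library below every polyA control library, as 44.5% of all genes had. In miR-106b cells 2 were richer in Ago2-IP RNA, Snhg14 (2.04, SE 0.565, adjusted p = 0.0168) and Malat1 (0.65, SE 0.234, adjusted p = 0.0401), both with groups that overlapped. Another 6 were poorer, among them Snhg12 (-2.01, adjusted p = 0.000331), Gas5 (-1.77, adjusted p = 9.5e-05) and Snhg8 (-0.94, adjusted p = 0.00179). Among all genes 38.5% passed in either direction. The ratio changed for 5 of the 21, beside 27.3% of all genes, with Snhg14 (1.94, adjusted p = 0.0391), Snhg17 (1.32, adjusted p = 0.0479), Snhg20 (1.07, adjusted p = 0.00710) and Snhg8 (0.85, adjusted p = 0.00997) up and Snhg18 (-1.61, adjusted p = 0.00960) down. In Ago2-IP RNA 0 of the 21 passed between transfections and 1 had an unadjusted p under 0.05 (5.55% of all genes).

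Genes that mark JG and mural cells, 15 listed and 12 tested, had 7 higher and 1 lower with miR-106b in polyA RNA (40.5% of all genes passed), and of 10 kidney tubule genes 5 were tested and 1 was lower. The summed kidney tubule level was 771 to 947 CPM in polyA control and 584 to 778 CPM with miR-106b, and 347 to 372 CPM (control) and 355 to 377 CPM (miR-106b) in Ago2-IP RNA.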

How the data were processed

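RNA-seq of polyA RNA and of Ago2-bound RNA (RISC) from transfected JG cells was analysed in 16 libraries, 4 in each of 4 groups given by the sample titles. The authors made non-strand-specific, single-end libraries, removed ribosomal RNA reads, aligned the rest to GRCm38 with Tophat2 (version 2.0.10 in the submitters' processing notes) and counted reads on genes with HTSeq. The deposited values are raw counts per gene, with no normalization and no filter. Depth was 2579086 to 9459585 counts per library, and intervals or limits from counts cover counting error only. Replicates are separate cultures, and no pair of libraries within a group agreed within sampling noise (lowest chi-square per degree of freedom 1.69). Pairs across groups were not compared. The value ran from 1.69 to 8.70 in polyA control and from 6.75 to 29.9 in polyA miR-106b, whose libraries were thus less alike.

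Genes with at least 1 CPM in 3 or more of the 4 replicates of some group were tested (14897 genes). The fits were run with edgeR 4.0.16 in R 4.3.3 (TMM within the libraries of a fit, robust quasi-likelihood F test, two-sided, Benjamini-Hochberg over all genes tested, threshold 0.05), with DESeq2 1.42.0 as an alternative. A prior count of 0.125 entered the fold changes, and SEs were derived from the F statistic. CPM are scaled to library size only, and levels per kilobase use the exon length of GENCODE M21. Correlations used log2 CPM with TMM over all 16 libraries and a prior count of 2. The scripts were tested on simulated counts. Rows of 3 of the genes on patch sequences held 0 counts and were left out. Starts are 1 higher than in the table, which counts from 0.

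The genes and lists were chosen with earlier results of these data known. Of each further list, up to 4 genes with the largest rise and up to 4 with the largest fall are named, among those past the threshold with a mean of at least 5 CPM. The 5 genes most like H19 have the highest Pearson correlation with it. H19 was not tested where control libraries enter, and counts of the genes leave it out there. Comparisons share libraries. Alternatives were other scaling, other filters, DESeq2's Wald test, a likelihood ratio test, a replicate block, all 16 libraries in 1 fit, and leaving out each library in turn. matplotlib 3.10.9 and pandas 2.3.3 under Python 3.11.15 were used for sequences and plots.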

Additional observations from a re-analysis of the deposited data

Results flagged for a closer look

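Of 40 groups of 4 libraries examined for the 10 genes, 2 had a library that stood apart by Dixon's criterion, and chance alone marks about 1 group in 20. Igf2r in Ago2-IP control had 314 CPM in replicate 1 and 330 to 333 CPM in the other libraries. Meg3 in Ago2-IP miR-106b had 165 CPM in replicate 4 and 134 to 139 CPM in the other libraries, and without that library its log2 fold change in Ago2-IP RNA was -0.04 in place of 0.04.

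The ratio of Ago2-IP to polyA RNA differed between transfections by an interaction test in edgeR for 5 of the 8 genes tested, 4 lower and 1 higher, where 27.3% of all genes passed, 19.7% lower and 7.62% higher. The log2 change was -1.42 for Igf2 (adjusted p = 3.9e-05), -0.64 for Igf2r (adjusted p = 0.000402), -1.24 for Meg3 (adjusted p = 0.00109), -1.92 for Rian (adjusted p = 0.000653) and 0.78 for Peg3 (adjusted p = 0.0402). The call of Peg3 was lost in 9 of the 16 fits without 1 library and with a replicate block (adjusted p = 0.0739).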

How the results depend on the processing

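Of 725 values of the genes' log2 fold changes under the alternatives, 685 kept their direction and their side of the threshold (or moved by less than the spread, where untested), as did 142 of 152 counts of genes (within 1.5 times) and medians of the control ratio (within the spread). The calls of Igf2, Igf2r, Meg3, Rian and Peg3 in polyA RNA held under all 16 alternatives each, and 5 to 8 of the 8 genes passed there in fits without 1 library (8 without polyA miR-106b replicate 1). Of all 14897 genes, 4123 to 6704 passed in these fits, the most without that same replicate. In Ago2-IP RNA the count of genes past the threshold moved from 0 to 20 with no filter on low counts, 2 with at least 10 counts in every library, 2 with DESeq2's Wald test, 4 with the likelihood ratio test and 1 with a replicate block, and from 0 to 40 in fits without 1 library (10 without Ago2-IP control replicate 4, 4 without Ago2-IP miR-106b replicate 1 and 40 without its replicate 4). The cause was not tested. There the log2 fold change of Grb10 turned to -0.01 with no filter and -0.02 with all 16 libraries in 1 fit. Without 1 library it ran from -0.04 to 0.04 for Grb10, -0.04 to 0.19 for H19, -0.04 to 0.07 for Meg3 and -0.04 to 0.30 for Mirg.

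The replicate numbers did not pair libraries. Correlations of same-numbered deviations lay between -0.42 and 0.26, and 1 of 12 was the best with its own number. A replicate block gave 5511 genes in polyA RNA, 5326 for the ratio in miR-106b cells and 3897 for its change. With the block the Rian ratio was 0.75 (adjusted p = 0.0204 in edgeR's test) and the Peg3 change 0.77 (adjusted p = 0.0739).

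With all 16 libraries in 1 fit, 61.4% of the genes past the threshold in polyA RNA were higher in place of 47.0%, Plagl1 passed (0.68, adjusted p = 0.0403), and in the ratio Rian (0.71, adjusted p = 0.0345) and Mirg (0.94, adjusted p = 0.0303) passed. Rian also passed there with no filter (0.68, adjusted p = 0.0303). Both passed without polyA miR-106b replicate 2 (0.95, adjusted p = 0.0302, and 1.25, adjusted p = 0.0263), and Mirg without Ago2-IP miR-106b replicate 1 (1.12, adjusted p = 0.0402). At the low end, the Rian ratio was 0.44 without polyA miR-106b replicate 3 and the Mirg ratio 0.70 without polyA miR-106b replicate 1. The Grb10 change of the ratio was 0.33 (adjusted p = 0.0395) without polyA miR-106b replicate 1, and that of Peg3 was 0.56 to 0.98 over its alternatives. Scaling by library size alone moved the control ratios of Igf2 to 2.21, Igf2r to 0.76 and Grb10 to -1.10, and their median over the 8 genes without H19 from 1.38 to 1.10. Depth limits Dlk1, Mirg, Rian and Plagl1 most, with 0 to 82 counts per library. With at least 10 counts asked of every library, Mirg was not tested.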
